A study of Mus musculus with 12 samples.

Results

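Imprinted genes are transcribed mainly from the chromosome inherited from one parent. A panel of 41 of them was followed in the hippocampus of stressed mice, of sons of such males and of matching controls. The genes were taken by symbol from a list and matched by Ensembl ID; 34 of them were found among the 35812 gene IDs of the count table, and the other 7, all noncoding RNAs, were read from FPKM values alone. Genes were classed by the parent whose copy is known to be active in at least some tissues or transcripts. The classes held 21 paternally expressed genes, 16 maternally expressed ones and 4 dependent on isoform or cell type (Grb10, Gnas, Blcap and Ddc). Whether a class holds in hippocampus was not tested. All mice were C57BL/6 males, 8 weeks old, and the hippocampi of 3 independent mice made up each of 4 groups. The groups were mice made depressive by stress (F0_Dep), normal mice (F0_Ctl), sons of depressed males (F1_Dep) and sons of normal males (F1_Ctl). None carried an engineered allele according to the labels, and neither the fathers nor the litters of the sons are named, so whether sons of a group share a father is not known here.

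A parental imprint is laid down in the germ line as DNA methylation at control regions rich in CG dinucleotides. It survives the erasure that follows fertilisation and silences the marked copy, or the neighbours of a marked copy, in the tissues of the offspring. Imprinted genes lie in clusters that often pair a paternally expressed gene with a maternally expressed neighbour, and many are active in brain, where they include growth regulators, ubiquitin ligases and long noncoding RNAs. The genes were compared here between sons of stressed and unstressed fathers. Which of them carry a methylation mark from sperm, and which from the oocyte, was not examined. All mice were of one inbred strain and the values are totals per gene, so the 2 parental copies cannot be told apart in these data.

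Library totals lay between 18277208 and 23083678 expected counts. All 11 of the 12 hippocampal neuron markers that were in the count table were detected, with a summed level of 831 to 1333 CPM in F1_Dep and of 1275 to 1799 CPM in the other 3 groups, where CPM is the read count scaled to a common library total. Libraries stood apart in markers of neighbouring tissue. The 19 markers of the choroid plexus, the epithelium that secretes cerebrospinal fluid, summed to 286 to 644 CPM in F0_Dep, against 255, 352 and 6832 CPM in F0_Ctl, and to 3828 to 6557 CPM in F1_Dep, against 457, 1140 and 12877 CPM in F1_Ctl. F1_Dep 1 held 1559 CPM of the 11 striatal markers, where the other 11 libraries held 198 to 379 CPM. Labels of F1_Ctl alone carry sequencing lane names, so sequencing and group cannot be told apart for F1_Ctl.

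The promoters of 4 genes classed as paternally expressed are shown because the results below turn on these genes. Inpp5f is the single gene of the panel that edgeR called, Peg3 is the member of its own domain with the highest level, and Plagl1 and Mcts2 were among the 3 members with the smallest p-values in 2 comparisons each. Each window runs from 250 bases before the transcript start to 50 bases after it, taken from RefSeq on GRCm38.p6 and written 5′ to 3′ on the gene's strand, with CG dinucleotides in capitals.
Inpp5f (chr7:128611115-128611414, plus strand): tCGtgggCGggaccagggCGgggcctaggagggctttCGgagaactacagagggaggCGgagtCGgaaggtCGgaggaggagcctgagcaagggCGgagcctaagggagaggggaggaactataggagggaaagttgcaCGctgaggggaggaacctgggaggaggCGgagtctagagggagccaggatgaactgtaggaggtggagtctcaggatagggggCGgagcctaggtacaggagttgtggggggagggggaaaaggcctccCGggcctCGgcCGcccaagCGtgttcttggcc
Peg3 (chr7:6730370-6730669, minus strand): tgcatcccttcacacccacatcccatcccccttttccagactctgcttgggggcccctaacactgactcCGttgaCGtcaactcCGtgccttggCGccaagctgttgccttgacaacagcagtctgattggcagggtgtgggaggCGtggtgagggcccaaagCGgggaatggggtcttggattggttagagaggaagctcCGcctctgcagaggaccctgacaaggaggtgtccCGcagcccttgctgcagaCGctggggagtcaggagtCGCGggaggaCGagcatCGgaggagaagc
Plagl1 (chr10:13090582-13090881, plus strand): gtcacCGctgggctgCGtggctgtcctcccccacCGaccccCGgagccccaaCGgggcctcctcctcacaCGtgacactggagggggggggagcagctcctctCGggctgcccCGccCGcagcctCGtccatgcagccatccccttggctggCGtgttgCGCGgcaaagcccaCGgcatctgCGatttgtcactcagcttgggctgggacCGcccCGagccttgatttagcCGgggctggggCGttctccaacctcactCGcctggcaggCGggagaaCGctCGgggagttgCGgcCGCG
Mcts2 (chr2:152686898-152687197, plus strand): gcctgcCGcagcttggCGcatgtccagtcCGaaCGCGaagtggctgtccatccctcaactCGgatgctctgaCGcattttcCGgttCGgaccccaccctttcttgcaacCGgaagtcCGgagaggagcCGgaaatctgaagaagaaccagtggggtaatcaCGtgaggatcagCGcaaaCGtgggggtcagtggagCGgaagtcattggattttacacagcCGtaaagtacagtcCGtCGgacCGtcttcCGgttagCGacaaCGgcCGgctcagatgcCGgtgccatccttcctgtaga
These windows held 15 CG dinucleotides at Inpp5f, 13 at Peg3, 26 at Plagl1 and 25 at Mcts2. The median was 13.5 over the 52 windows of the 34 panel genes matched in RefSeq and 7 over 32851 windows of all genes. The hexamer TGCCGC, known as the recognition core of ZFP57, a zinc finger protein that protects imprints, was searched on both strands. It occurred in 25% of the panel windows and in 11.6% of all windows. The hexamer itself holds a CG dinucleotide, and the part of the higher CG number in this difference was not tested. Some windows of a gene overlap, as at Mest, so windows are not independent. The hexamer occurred once each at Plagl1 and Mcts2 and not in the Inpp5f and Peg3 windows. Peg3 and its neighbour Usp29 start 164 bases apart in opposite directions, so their windows share 263 bases. Only some Inpp5f transcripts of brain are known to be paternal, and whether these start in the window shown was not tested.

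The level of the panel spanned more than 4 orders of magnitude of FPKM, a read density scaled for transcript length and library depth, in the 9 libraries of F0_Dep, F0_Ctl and F1_Dep. In all, 5 genes averaged over 100 FPKM, 17 averaged 10 to 100, 9 averaged 1 to 10 and 10 averaged under 1. Gnas, which encodes the alpha subunit of the stimulatory G protein, led with a mean of 646 FPKM over the 9 libraries (489 to 839). It was followed by the maternally expressed long noncoding RNA Meg3 with 495 FPKM (401 to 635) and its neighbour Rian with 369 FPKM (328 to 433). Their ranges overlapped, as did that of Rian with Snrpn, a spliceosomal protein gene of neurons, with 323 FPKM (299 to 350). Rasgrf1, an exchange factor that activates Ras in neurons, had 132 FPKM (76.1 to 162). The maternally expressed RNA Mirg of the Meg3 cluster stood far lower than Meg3 and Rian, with 14.7 FPKM (12 to 16.9).

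**Figure D1:**
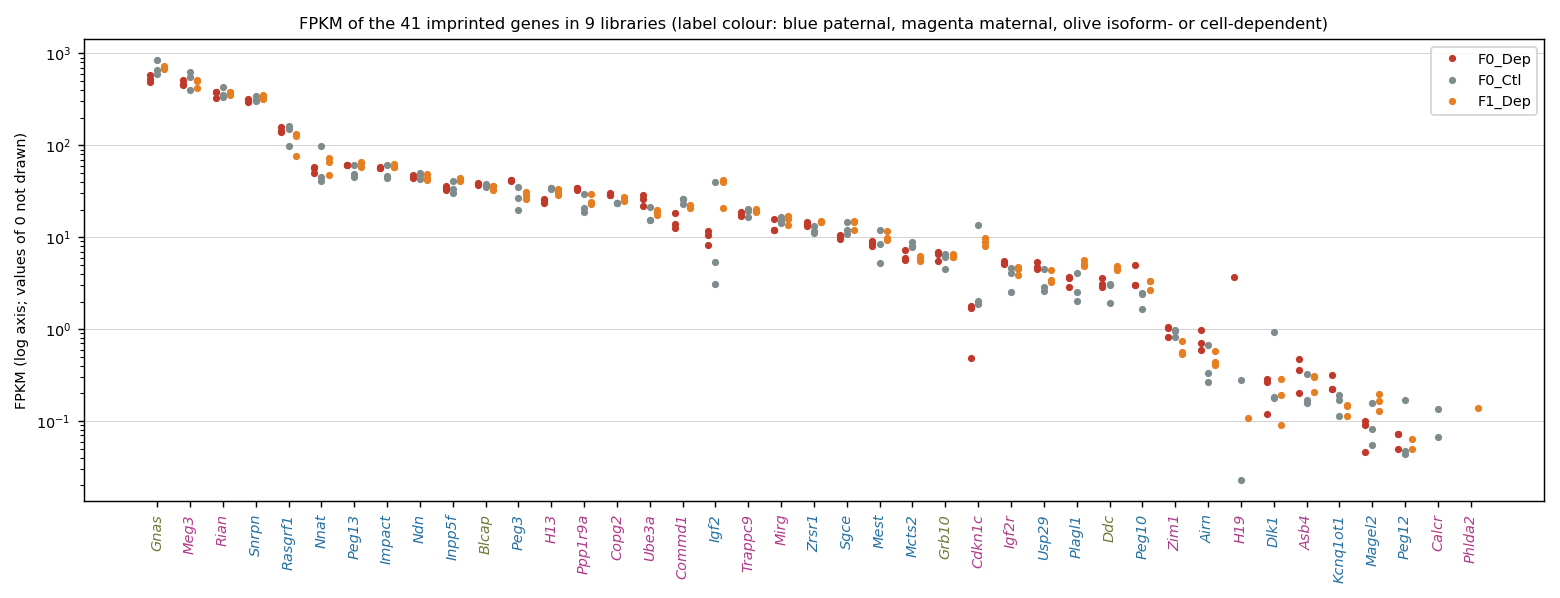
FPKM (log axis) of the 41 imprinted genes in each of 9 libraries, in order of their mean, with F0_Dep, F0_Ctl and F1_Dep side by side; values of 0 are not drawn. Gnas, Meg3, Rian, Snrpn and Rasgrf1 lie over 100 FPKM on average, and Igf2 and Cdkn1c spread most widely among genes over 1 FPKM.

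Of the 34 genes with counts, 30 had enough reads to be tested, made up of 16 paternally expressed, 10 maternally expressed and all 4 dependent ones. The 4 left out were near the detection limit. Dlk1, a membrane ligand related to Delta, held 1.5 to 11 expected counts per library, and Peg12 of the Prader-Willi cluster held 0 to 8.1. Calcr, the calcitonin receptor, was counted in 3 libraries with at most 4 counts, and Phlda2, a growth-restraining gene of placenta, in 2 libraries with 2 counts and 1. A count of 0 allows up to 3 counts, or 0.13 to 0.164 CPM in these libraries, from counting error alone. Among the 7 genes with FPKM only, Meg3, Rian, Mirg and Peg13 passed the FPKM filter and Airn, Kcnq1ot1 and H19 did not.

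Across the 6 comparisons, 1 call was made in the panel at a Benjamini-Hochberg adjusted p under 0.05 over all 16178 genes, by edgeR's quasi-likelihood test. Inpp5f was higher in F1_Dep than in F0_Dep, a comparison in which 2.87% of all genes were called. Values after a log2 fold change are its standard error (SE), all from this test unless FPKM is named. Since tissue pieces were sequenced whole, fewer cells of a type and less RNA per cell cannot be told apart in any of these values.

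In stressed mice against normal mice (F0_Dep against F0_Ctl) the edgeR test called 0 of 30 members, where 0.494% of all genes were called. At an unadjusted p under 0.05 the count was 6 of 30, beside 19.7% of all genes, and DESeq2 called 1, Peg10. Here and below, the share of all genes called by DESeq2 is not given. Its calls therefore cannot be read as particular to the panel. The median log2 fold change was 0.051 over the paternally expressed members, 0.154 over the maternally expressed members and -0.035 over all genes. Of the paternally expressed genes, 8 lay above 0 and 8 below; of the maternally expressed ones, 7 lay above and 3 below. All 3 F0_Dep libraries stood above all 3 F0_Ctl libraries for 6 members (Peg3, Peg10, Igf2r, Copg2, Ppp1r9a and Trappc9) and below them for 4 (Inpp5f, Ndn, Sgce and H13), where each direction held 13.7% of all genes.

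In sons of depressed males against sons of normal males (F1_Dep against F1_Ctl) edgeR again called 0 of 30, with 0.167% of all genes called. At an unadjusted p under 0.05 there were 4 of 30 members, Magel2 and Inpp5f higher and Mcts2 and Ndn lower, beside 14.8% of all genes. All 4 are classed as paternally expressed, as are 16 of the 30 tested, and DESeq2 called none. The medians were 0.057 for paternally expressed members, 0.038 for maternally expressed members and -0.019 for all genes. Impact, Inpp5f, Magel2 and Peg10 were higher in every F1_Dep library than in every F1_Ctl library, as were 8.72% of all genes. Zim1, Mcts2 and Blcap were lower in every one, as were 10.3% of all genes.

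Sons of depressed males were also set against the parental generation. Against F0_Ctl, edgeR called 0 of 30 members in F1_Dep and 0% of all genes, 3 members had an unadjusted p under 0.05 beside 12.8% of all genes, and DESeq2 called Ddc. In that comparison the groups did not overlap for 5 members that were higher in F1_Dep (Plagl1, Ddc, Zrsr1, Trappc9 and Peg10), against 9.09% of all genes, and for 3 that were lower (Zim1, Mcts2 and Blcap), against 10.5%. Against F0_Dep, the groups did not overlap for 9 members higher in F1_Dep and 5 lower, shares to set beside 22.6% and 20.3% of all genes, and 8 members had an unadjusted p under 0.05, beside 22.3% of all genes. DESeq2 called Plagl1 and Inpp5f there. The median of the maternally expressed members was -0.155 in F1_Dep against F0_Dep and that of the paternally expressed members 0.058, beside 0.006 for all genes. F1_Dep against F0_Ctl and F1_Dep against F1_Ctl share the F1_Dep libraries, so their values are not independent.

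Between the 2 control groups (F1_Ctl against F0_Ctl) edgeR called 0 members and 0% of all genes. Ddc alone had an unadjusted p under 0.05, beside 5.9% of all genes, and DESeq2 called none. Ddc and Copg2 were higher in every F1_Ctl library than in every F0_Ctl library, as were 2.72% of all genes, and no member was lower in every one, against 3.35%. The interaction, which takes the F1_Dep minus F1_Ctl change less the F0_Dep minus F0_Ctl change, gave 0 calls among the members and 0.068% among all genes. There the unadjusted count was 4 (Inpp5f, Ube3a, Copg2 and Impact), beside 13.4% of all genes, and DESeq2 called Inpp5f.

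**Figure D2:**
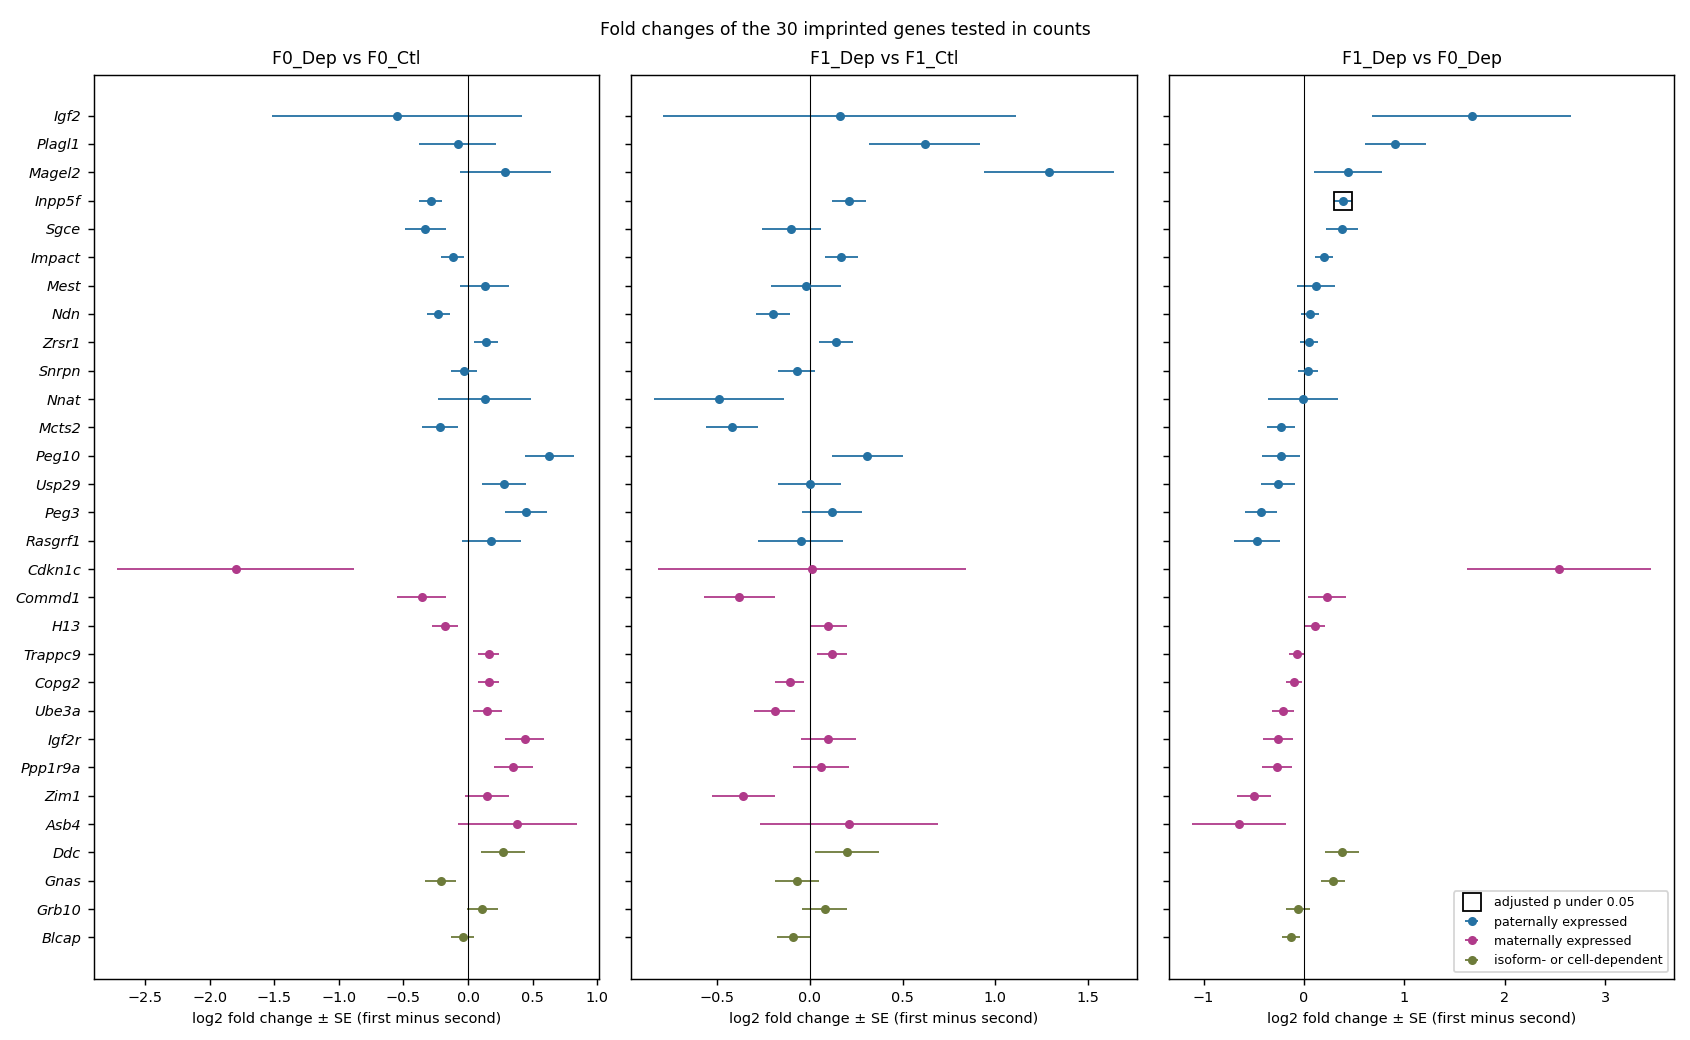
Log2 fold change (x axis, first group minus second, with SE bars) of the 30 imprinted genes tested in counts, in 3 comparisons of 3 mice a group; colours mark the parental class and the square an adjusted p under 0.05. Inpp5f in F1_Dep against F0_Dep carries the single square, and Cdkn1c and Igf2 have the longest bars.

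Inpp5f (chromosome 7, 128611328 to 128696425 on GRCm38, plus strand, ENSMUSG00000042105) encodes a phosphoinositide phosphatase, and some of its brain transcripts are known to be made from the paternal copy. It had 112, 119 and 109 CPM in F0_Dep, against 147, 147 and 121 CPM in F0_Ctl, and 153, 146 and 149 CPM in F1_Dep, against 120, 135 and 132 CPM in F1_Ctl. The F0_Dep libraries were thus the lowest 3 of the 12, and those of F1_Dep lay above all of F0_Dep and F1_Ctl. In F1_Dep against F0_Dep it rose by 0.39 ± 0.09 (adjusted p = 0.0459 by edgeR), 3 of 3 libraries higher. In the same comparison the 9 of 10 oligodendrocyte markers in the table summed to 5769 to 6915 CPM in F1_Dep, against 2738 to 3046 CPM in F0_Dep, and the 11 dentate granule cell markers to 188 to 502 CPM in F1_Dep, against 690 to 967 CPM in F0_Dep. In the controls the oligodendrocyte sums were 4194 to 7091 CPM in F1_Ctl, against 2089 to 5938 CPM in F0_Ctl. The part of these markers in the Inpp5f difference was not tested. In F0_Dep against F0_Ctl the log2 fold change was -0.29 ± 0.09 (adjusted p = 0.132), in F1_Dep against F1_Ctl 0.21 ± 0.09 (adjusted p = 0.321), and the interaction 0.49 ± 0.13 (adjusted p = 0.147). The interaction passed without F0_Ctl 3, the F0_Ctl library with the lowest Inpp5f level (adjusted p = 0.0476).

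The call on Inpp5f was close to the threshold. It was lost when any 1 of the 6 libraries compared was left out, at adjusted p of 0.136, 0.122 and 0.187 without F0_Dep 1, 2 and 3 and of 0.151, 0.0919 and 0.12 without F1_Dep 1, 2 and 3. It was also lost without F1_Ctl 2 (adjusted p = 0.0624), and the log2 fold change stayed between 0.28 and 0.43 over 22 alternatives. In FPKM, Inpp5f had 34.6, 36.3 and 32.7 in F0_Dep, against 33.3, 40.9 and 30.6 in F0_Ctl, where the groups overlap and the log2 fold change was -0.01 ± 0.11. In F1_Dep it had 41, 41.8 and 43.8 FPKM, above every other library, and the change from F0_Dep was 0.28 ± 0.11 (limma adjusted p = 0.0986). The count and the FPKM values therefore differ on the level in F0_Dep relative to F0_Ctl and both place F1_Dep above F0_Dep.

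The Prader-Willi and Angelman cluster of chromosome 7 holds the paternally expressed Snrpn, Ndn, Magel2 and Peg12 and the maternally expressed Ube3a. Snrpn had 722, 752 and 721 CPM in F0_Dep, against 783, 681 and 773 CPM in F0_Ctl, and 796, 718 and 749 CPM in F1_Dep, against 743, 882 and 745 CPM in F1_Ctl. All 4 groups overlapped and the log2 fold changes lay between -0.07 and 0.08, each with an SE of 0.1. Snrpn shares its transcript with Snurf, so counts of the pair are uncertain.

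Ube3a, the ubiquitin ligase whose maternal copy alone is active in neurons, had 159, 190 and 177 CPM in F0_Dep, against 148, 178 and 149 CPM in F0_Ctl, and 169, 141 and 145 CPM in F1_Dep, against 169, 178 and 171 CPM in F1_Ctl. No pair of groups separated in CPM, and its log2 fold change was 0.15 ± 0.11 in F0_Dep against F0_Ctl and -0.19 ± 0.11 in F1_Dep against F1_Ctl (adjusted p = 0.461 and 0.438). In FPKM Ube3a had 22, 29.1 and 25.9 in F0_Dep, against 15.6, 21.1 and 15.4 in F0_Ctl, without overlap (0.55 ± 0.14, limma adjusted p = 0.0227). F1_Dep, at 17.6 to 19.8 FPKM, lay below every F0_Dep library (-0.43 ± 0.14, limma adjusted p = 0.0616). Ndn, a MAGE family protein of postmitotic neurons, had 151 to 163 CPM in F0_Dep, against 171 to 188 CPM in F0_Ctl, with a log2 fold change of -0.23 ± 0.09 (adjusted p = 0.197). In FPKM that difference was -0.03 ± 0.09, with groups that overlap.

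Magel2 (chromosome 7, 62377010 to 62381640), a MAGE protein that acts with a ubiquitin ligase in endosomal sorting and is expressed mainly in hypothalamus, had the smallest p-value of the panel in F1_Dep against F1_Ctl. It had 0.869, 0.831 and 1.04 CPM in F0_Dep, against 0.56, 0.57 and 1.09 CPM in F0_Ctl, and 1.39, 1.03 and 1.31 CPM in F1_Dep, against 0.571, 0.385 and 0.549 CPM in F1_Ctl. The F1 groups did not overlap, and the log2 fold change was 1.29 ± 0.35 (adjusted p = 0.133). The Magel2 levels of the sons rest on 24 to 28.7 expected counts per F1_Dep library and 7 to 13.3 per F1_Ctl library. The 15 hypothalamic and thalamic markers summed to 83.7 to 89.2 CPM in F1_Dep, against 99.5 to 154 CPM in F1_Ctl. Of these markers, 9 had enough reads to be tested. The median level of those 9, on a log2 scale centred per gene, was -0.17 to 0.06 in F1_Dep and -0.03 to 0.32 in F1_Ctl. These ranges overlap, and the part of these markers in the Magel2 difference was not tested.

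**Figure D3:**
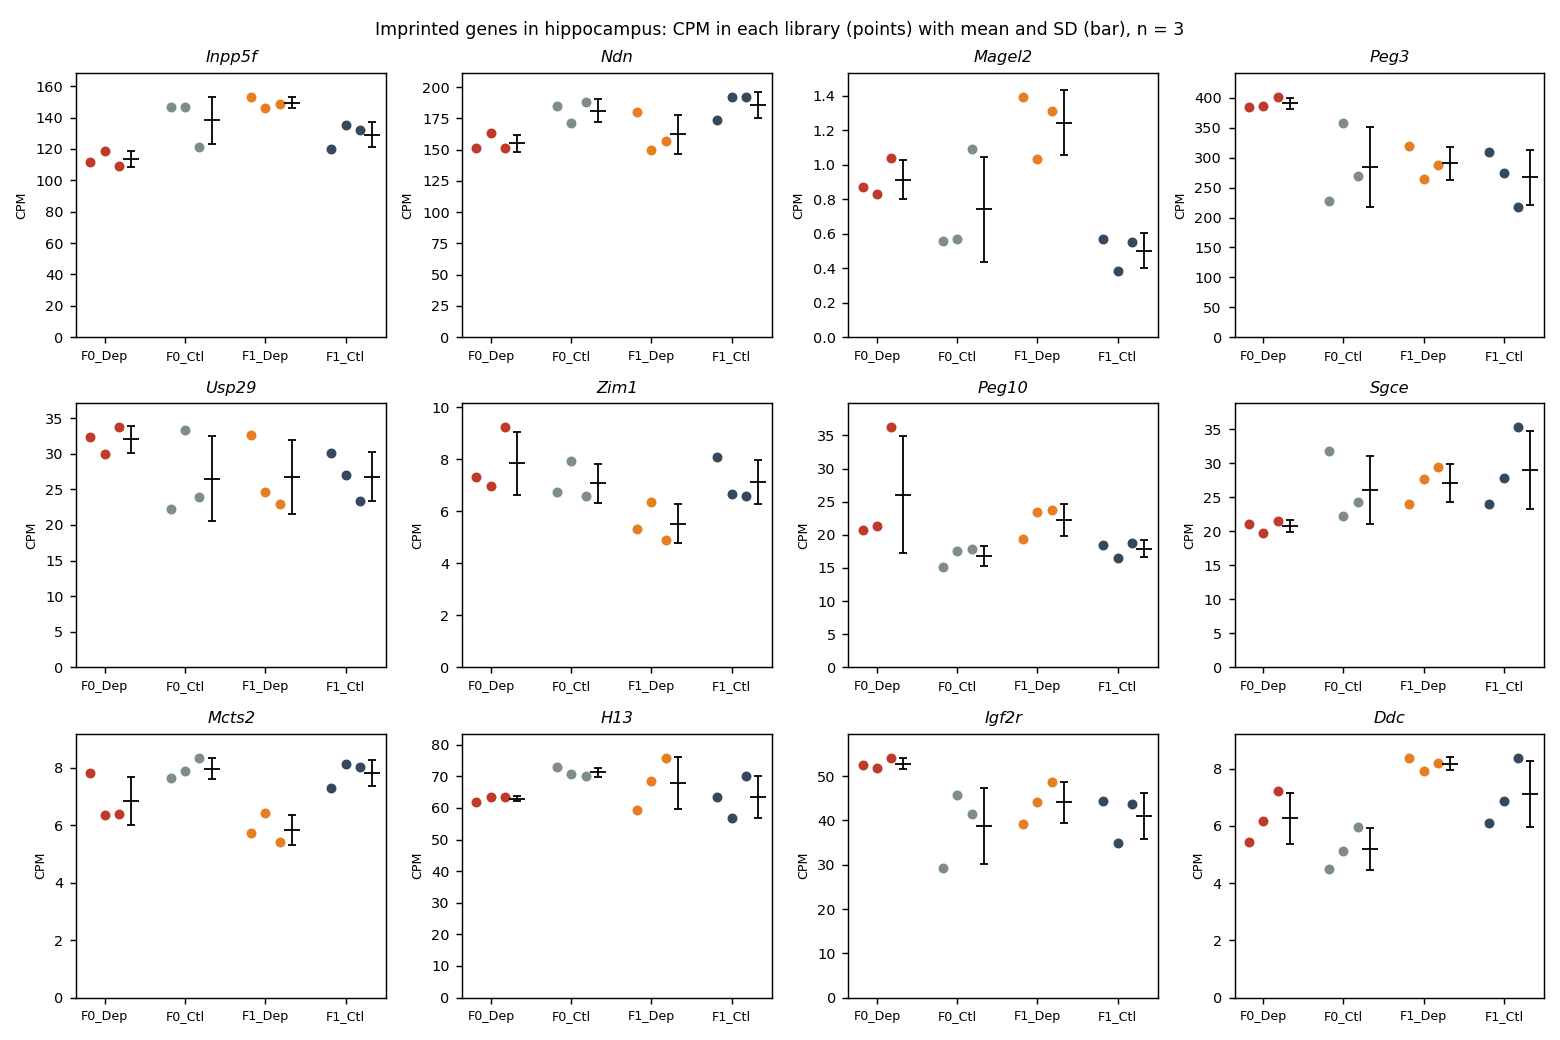
CPM (y axis, from 0) of 12 imprinted genes in each of 3 libraries per group, with the mean and SD beside the points. Inpp5f is lowest in F0_Dep (109 to 119 CPM), Magel2 lowest in F1_Ctl (0.385 to 0.571 CPM), and Mcts2 lower in F1_Dep (5.4 to 6.41 CPM) than in either control group.

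The Peg3 domain lies at the other end of chromosome 7. Peg3 (6703892 to 6730431, minus strand), a large zinc finger protein linked to maternal behaviour in mice, had 384, 387 and 401 CPM in F0_Dep, against 227, 358 and 270 CPM in F0_Ctl, and 319, 264 and 288 CPM in F1_Dep, against 309, 275 and 218 CPM in F1_Ctl. The F0_Dep libraries were the highest 3 of the 12. Its log2 fold change was 0.45 ± 0.16 in F0_Dep against F0_Ctl (adjusted p = 0.162) and -0.43 ± 0.16 in F1_Dep against F0_Dep (adjusted p = 0.152). The first passed without F0_Ctl 2, the F0_Ctl library with the highest Peg3 level (0.65 ± 0.15, adjusted p = 0.0489). Peg3 had 41.3 to 42.1 FPKM in F0_Dep, against 19.7 to 35.4 FPKM in F0_Ctl, and on that scale rose by 0.63 ± 0.17 (limma adjusted p = 0.0267).

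Usp29, the paternally expressed ubiquitin protease gene that starts beside Peg3, gave 0.28 ± 0.17 in the same comparison, with 30 to 33.7 CPM in F0_Dep, against 22.3 to 33.3 CPM in F0_Ctl. Zim1, the maternally expressed zinc finger gene of the domain, had 7.33, 6.98 and 9.22 CPM in F0_Dep, against 6.72, 7.94 and 6.58 CPM in F0_Ctl, and 5.3, 6.37 and 4.91 CPM in F1_Dep, against 8.09, 6.66 and 6.59 CPM in F1_Ctl. Every F1_Dep library lay below all 9 others. The log2 fold change of Zim1 was -0.50 ± 0.17 against F0_Dep (adjusted p = 0.118), -0.36 ± 0.17 against F0_Ctl (adjusted p = 0.412) and -0.36 ± 0.17 against F1_Ctl (adjusted p = 0.349). The 3 comparisons share the F1_Dep libraries.

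The Peg10-Sgce domain of chromosome 6 gave values of opposite sign for its 2 paternally expressed genes. Peg10 (4747306 to 4760517, plus strand), a retrotransposon-derived gene needed in placenta, had 20.7, 21.3 and 36.2 CPM in F0_Dep, against 15.1, 17.6 and 17.8 CPM in F0_Ctl, and 19.4, 23.5 and 23.8 CPM in F1_Dep, against 18.5, 16.5 and 18.8 CPM in F1_Ctl. In both generations the first group lay above the second in every library, and F0_Dep 3 was the highest of all. The log2 fold change was 0.63 ± 0.19 in F0_Dep against F0_Ctl (adjusted p = 0.118 by edgeR, 0.0309 by DESeq2; 0.32 ± 0.13 and 0.38 by edgeR without F0_Dep 3) and 0.31 ± 0.19 in F1_Dep against F1_Ctl (adjusted p = 0.487).

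Sgce, epsilon-sarcoglycan of the neuronal membrane, starts beside Peg10 on the opposite strand and had 19.8 to 21.5 CPM in F0_Dep, against 22.2 to 31.8 CPM in F0_Ctl, a log2 fold change of -0.33 ± 0.16 (adjusted p = 0.284). Among the maternally expressed genes of the domain, Ppp1r9a, the actin-binding spine protein neurabin, had 319, 329 and 337 CPM in F0_Dep, against 261, 306 and 207 CPM in F0_Ctl, and 322, 243 and 253 CPM in F1_Dep, against 287, 267 and 229 CPM in F1_Ctl. Only the F0 groups did not overlap, with 0.35 ± 0.15 (adjusted p = 0.224), or 0.22 ± 0.14 without F0_Ctl 3 (adjusted p = 0.447). Asb4 held 0.385 to 1.22 CPM over all libraries, with log2 fold changes of -0.65 to 0.38 and an SE of 0.46 to 0.48.

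Over all genes, exonic length went with the F0_Dep difference and with differences in other comparisons. The median log2 fold change of F0_Dep against F0_Ctl was 0.10 for the 4878 tested genes with more than 6000 exonic bases and -0.22 for the 2336 with fewer than 2000, and 0.18 and -0.25 in FPKM. In counts the long and short medians were 0.03 and -0.17 in F1_Dep against F1_Ctl, and -0.08 and 0.12 in F1_Dep against F0_Dep. Peg3 has 13324 exonic bases, Ppp1r9a 14531, Usp29 18078 and Ube3a 20626, while Mcts2 has 912. The long-minus-short difference of single libraries lay between 0.15 and 0.32 in F0_Dep, and was -0.27, 0.16 and -0.14 in F0_Ctl, -0.01, 0.03 and 0.03 in F1_Dep and 0.08, -0.23 and -0.40 in F1_Ctl. Its part in the values of the long and short imprinted genes was not tested. The medians of the parental classes were not corrected for length. Inpp5f, with 8323 exonic bases, and Sgce, with 10612, are long genes that lay lower in F0_Dep in counts.

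**Figure D4:**
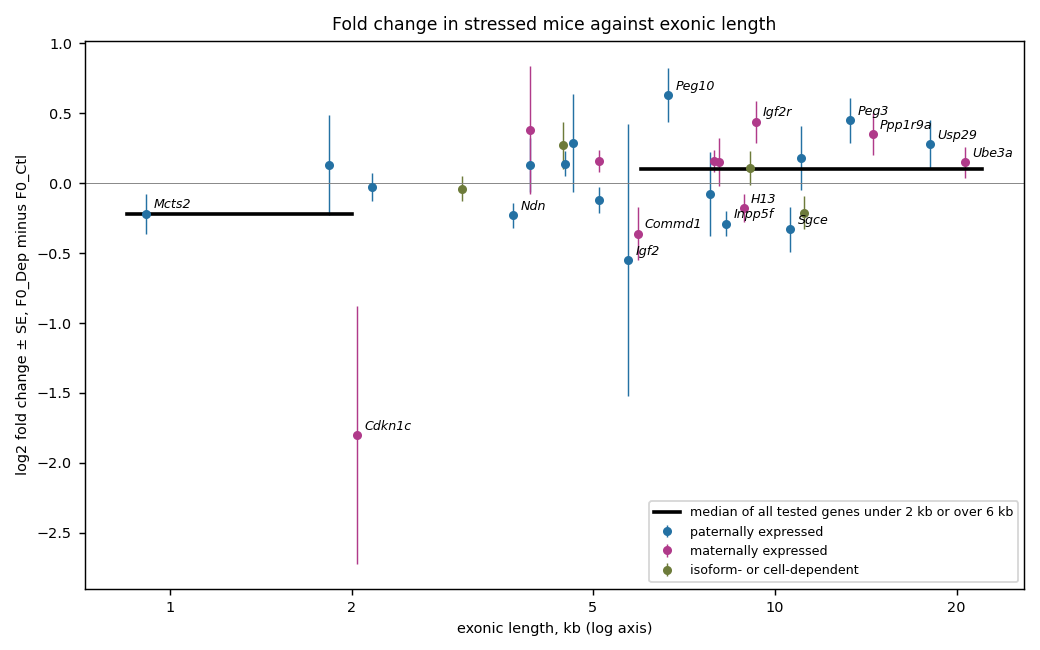
Log2 fold change of F0_Dep against F0_Ctl (y axis, with SE bars) of the 30 tested imprinted genes against exonic length in kilobases (log x axis); black lines mark the medians of all tested genes, -0.22 for short and 0.10 for long ones. Peg3, Igf2r and Ppp1r9a lie above the long-gene median, and Inpp5f and Sgce lie below it.

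The growth axis of imprinted genes joins Igf2, a paternally expressed growth factor, to Igf2r, the maternally expressed receptor that clears it, and to the growth-restraining Cdkn1c and the transcription factor Plagl1. Igf2r (chromosome 17, 12682406 to 12769664, minus strand) had 52.6, 51.8 and 54.2 CPM in F0_Dep, against 29.2, 45.8 and 41.5 CPM in F0_Ctl, and 39.3, 44.2 and 48.7 CPM in F1_Dep, against 44.3, 34.9 and 43.8 CPM in F1_Ctl. The F0_Dep libraries were the highest 3, with a log2 fold change of 0.44 ± 0.15 from F0_Ctl (adjusted p = 0.152; 0.29 ± 0.12 without F0_Ctl 1, adjusted p = 0.292) and of -0.26 ± 0.15 in F1_Dep against F0_Dep (adjusted p = 0.328). Airn, the paternal antisense RNA that silences Igf2r in mouse, overlaps it by 28354 bases and had 0.595, 0.973 and 0.717 FPKM in F0_Dep, against 0.268, 0.336 and 0.675 FPKM in F0_Ctl, and 0.436, 0.583 and 0.409 FPKM in F1_Dep. The F0 groups of Airn overlapped, and at this level, below the filter, no test was made.

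Igf2 (chromosome 7, 142650766 to 142666816, minus strand) is made in adult brain chiefly by choroid plexus and meninges. It had 44.6, 37.6 and 31.7 CPM in F0_Dep, against 19.1, 9.51 and 138 CPM in F0_Ctl, and 73, 145 and 144 CPM in F1_Dep, against 21.1, 33.6 and 270 CPM in F1_Ctl. Its highest 5 libraries were the 3 of F1_Dep, F0_Ctl 3 and F1_Ctl 3, the same 5 in which the choroid plexus markers summed to 3828 CPM or more. In F1_Dep against F0_Dep the log2 fold change was 1.67 ± 0.99 (adjusted p = 0.336), and in F0_Dep against F0_Ctl it was -0.55 ± 0.97 (adjusted p = 0.789). Without F0_Ctl 3 the difference of F0_Dep from F0_Ctl turned to 1.42 ± 0.89 (adjusted p = 0.444). Over the 14 meningeal markers in the table the sums were 68.5 to 83.2 CPM in F0_Dep, against 52.9 to 199 CPM in F0_Ctl, and 96.3 to 176 CPM in F1_Dep, against 87.3 to 326 CPM in F1_Ctl.

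Cdkn1c (chromosome 7, 143458339 to 143461050, minus strand), an inhibitor of cyclin-dependent kinases, had 3.96, 2.16 and 1.36 CPM in F0_Dep, against 3.51, 2.71 and 19.8 CPM in F0_Ctl, and 13, 17 and 13.7 CPM in F1_Dep, against 3.12, 5.89 and 34.3 CPM in F1_Ctl. The same 5 libraries were highest. The log2 fold change was 2.54 ± 0.92 in F1_Dep against F0_Dep (adjusted p = 0.14), and it passed without F1_Ctl 3 (adjusted p = 0.049) and in FPKM, where Cdkn1c rose by 2.15 ± 0.52 (limma adjusted p = 0.0303). In F0_Dep against F0_Ctl it was -1.80 ± 0.92 and, without F0_Ctl 3, -0.31 ± 0.85 (adjusted p = 0.304 and 0.883).

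Plagl1 (chromosome 10, 13060504 to 13131694, plus strand) had 16.7, 17 and 16 CPM in F0_Dep, against 13.1, 14.8 and 24.7 CPM in F0_Ctl, and 33.4, 32.4 and 27.7 CPM in F1_Dep, against 15.7, 13.4 and 31.9 CPM in F1_Ctl. Again F1_Dep, F0_Ctl 3 and F1_Ctl 3 were the highest. On the log2 scale Plagl1 differed by 0.91 ± 0.30 in F1_Dep against F0_Dep, 0.83 ± 0.30 against F0_Ctl and 0.62 ± 0.30 against F1_Ctl (adjusted p = 0.108, 0.269 and 0.359 by edgeR). The first passed in DESeq2 (adjusted p = 0.0313) and without F1_Ctl 3 (adjusted p = 0.0268).

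Igf2, Cdkn1c and Plagl1 were followed with and without the libraries that an earlier look at the data had found apart in choroid plexus or striatal markers, F0_Ctl 3, F1_Ctl 3 and F1_Dep 1. With all libraries, F1_Dep differed from F1_Ctl by 0.16 ± 0.95 for Igf2 (adjusted p = 0.966) and 0.01 ± 0.83 for Cdkn1c (adjusted p = 0.996). Without F1_Ctl 3 alone the values were 2.17 ± 0.88 for Igf2, 1.73 ± 0.75 for Cdkn1c and 1.12 ± 0.23 for Plagl1 (adjusted p = 0.305, 0.334 and 0.087). With all 3 left out, Igf2 rose in F1_Dep against F1_Ctl by 2.40 ± 0.30 (adjusted p = 0.00482) and in F0_Dep against F0_Ctl by 1.42 ± 0.28 (adjusted p = 0.0305). Plagl1 then rose by 1.04 ± 0.14 in F1_Dep against F1_Ctl (adjusted p = 0.00563), and Cdkn1c had 1.78 ± 0.40 (adjusted p = 0.0543). The omission removes the high-choroid libraries of both control groups and keeps F1_Dep 2 and 3, which held 6557 and 6173 CPM of choroid plexus markers. The part of choroid plexus RNA in these values was not tested. Snrpn ranged from 681 to 882 CPM over the same libraries.

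**Figure D5:**
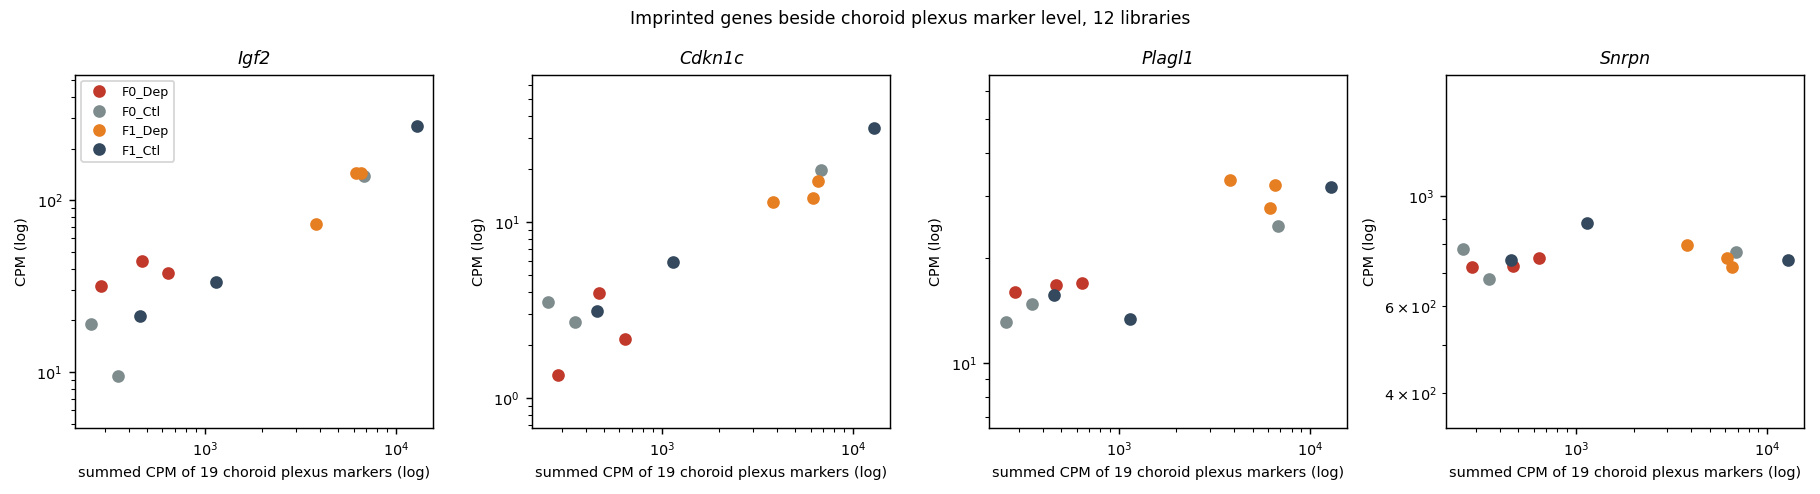
CPM of Igf2, Cdkn1c, Plagl1 and Snrpn (log y axes) against the summed CPM of 19 choroid plexus markers (log x axes) in 12 libraries, coloured by group. The 3 F1_Dep libraries, F0_Ctl 3 and F1_Ctl 3 form the right-hand cluster, where Igf2 lies at 73 to 270 CPM, against 9.51 to 44.6 CPM in the left-hand cluster; Snrpn spans 718 to 796 CPM in the right-hand cluster and 681 to 882 CPM in the left-hand one.

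H19, the maternally expressed noncoding RNA beside Igf2, was read from FPKM alone. It had 3.66 FPKM in F0_Dep 1 and was listed at 0 in F0_Dep 2 and 3, against 0.0228, 0 and 0.283 FPKM in F0_Ctl; in F1_Dep it was listed at 0, 0.108 and 0. A single stressed mouse thus held nearly all of the signal, and the gene was not tested. Kcnq1ot1, the paternal RNA that silences Cdkn1c and its neighbours, had 0.319, 0.226 and 0.223 FPKM in F0_Dep, against 0.113, 0.168 and 0.193 FPKM in F0_Ctl, and 0.151, 0.147 and 0.115 FPKM in F1_Dep. Its F0_Dep libraries were the highest 3 of 9, at a level under the filter, so no test was made.

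Grb10, an adaptor that restrains insulin and growth factor signalling, is expressed from the paternal copy in neurons and from the maternal copy elsewhere. It had 28.8, 27 and 31.1 CPM in F0_Dep, against 21.7, 28.8 and 29.9 CPM in F0_Ctl, and 28.9, 27.2 and 27.2 CPM in F1_Dep, against 28, 23.9 and 27 CPM in F1_Ctl. The groups overlapped in all comparisons, with log2 fold changes of -0.06 to 0.11 and an SE of 0.12.

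Its neighbour Ddc (chromosome 11, 11814101 to 11898144, minus strand), the decarboxylase that makes dopamine and serotonin, had 5.43, 6.15 and 7.2 CPM in F0_Dep, against 4.48, 5.13 and 5.95 CPM in F0_Ctl, and 8.38, 7.92 and 8.19 CPM in F1_Dep, against 6.11, 6.88 and 8.38 CPM in F1_Ctl. Both groups of sons lay above F0_Ctl in every library. On the log2 scale Ddc differed by 0.65 ± 0.17 in F1_Dep against F0_Ctl (adjusted p = 0.166 by edgeR, 0.0323 by DESeq2), 0.46 ± 0.17 in F1_Ctl against F0_Ctl (adjusted p = 0.751) and 0.20 ± 0.17 in F1_Dep against F1_Ctl (adjusted p = 0.641).

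In the Dlk1-Meg3 domain of chromosome 12, Meg3 had 518, 466 and 456 FPKM in F0_Dep, against 401, 635 and 557 FPKM in F0_Ctl, and 509, 420 and 498 FPKM in F1_Dep. F0_Ctl held both the lowest and the highest library, and the log2 fold change was -0.12 ± 0.16 in F0_Dep against F0_Ctl and -0.14 ± 0.16 in F1_Dep against F0_Ctl (limma adjusted p = 0.599 and 0.657). Rian and Mirg also overlapped between groups, with changes of -0.20 to 0.19 and limma adjusted p of 0.274 or more in the comparison of F0_Dep with F0_Ctl.

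The Mest domain of chromosome 6 pairs the paternally expressed Mest with the maternally expressed Copg2, a coat protein subunit of transport vesicles; their ends overlap by 912 bases on opposite strands. Mest had 28.5, 24.7 and 26.6 CPM in F0_Dep, against 19.2, 22.5 and 31.2 CPM in F0_Ctl, and 29.5, 29.9 and 27.1 CPM in F1_Dep, against 25.9, 23.4 and 38.1 CPM in F1_Ctl, and its groups overlapped throughout. Copg2 had 93, 105 and 101 CPM in F0_Dep, against 91.6, 86.4 and 89.3 CPM in F0_Ctl, and 90.4, 91.2 and 96.7 CPM in F1_Dep, against 96.4, 110 and 93.4 CPM in F1_Ctl. F0_Dep and F1_Ctl both lay above F0_Ctl, each by 0.16 ± 0.08 (adjusted p = 0.318 and 0.751). In FPKM Copg2 rose in F0_Dep by 0.30 ± 0.07 (limma adjusted p = 0.0222).

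Nnat, a paternally expressed membrane protein of neurons that lies inside an intron of Blcap, had 63.8, 78.6 and 77.3 CPM in F0_Dep, against 47.1, 51.7 and 102 CPM in F0_Ctl, and 82.8, 78.7 and 57.3 CPM in F1_Dep, against 49.8, 113 and 145 CPM in F1_Ctl. The spread within the control groups was as wide as any difference between groups, and the largest difference between 2 groups was 0.62 ± 0.36 in F1_Ctl against F0_Ctl (adjusted p = 0.751). It was 1.06 ± 0.34 without F0_Ctl 3 and 0.27 ± 0.36 without F1_Ctl 3 (adjusted p = 0.297 and 0.964). Blcap had 52.7 to 59.1 CPM in F1_Dep, against 59.2 to 63 CPM in F1_Ctl and 59.4 to 71.6 CPM in F0_Ctl, with a log2 fold change of -0.09 ± 0.09 from F1_Ctl (adjusted p = 0.667). Gnas had 1117, 1046 and 982 CPM in F0_Dep, against 1258, 1013 and 1362 CPM in F0_Ctl, and 1272, 1307 and 1254 CPM in F1_Dep, against 1165, 1406 and 1444 CPM in F1_Ctl. Its F1_Dep libraries lay above those of F0_Dep by 0.29 ± 0.12 (adjusted p = 0.197).

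A further pair of nested domains lies on chromosomes 2 and 11. Mcts2 (chromosome 2, 152687035 to 152687946), a paternally expressed retrogene copy of the translation factor gene Mcts1, lies within the maternally expressed H13 on the same strand. It had 7.82, 6.37 and 6.38 CPM in F0_Dep, against 7.64, 7.89 and 8.35 CPM in F0_Ctl, and 5.71, 6.41 and 5.4 CPM in F1_Dep, against 7.3, 8.14 and 8.03 CPM in F1_Ctl. F1_Dep lay below both control groups without overlap, by -0.42 ± 0.14 from F1_Ctl and -0.45 ± 0.14 from F0_Ctl (adjusted p = 0.207 and 0.22). In these comparisons the median of all tested genes with fewer than 2000 exonic bases was -0.17 and -0.08. Reads shared with Mcts1 or with H13 make the Mcts2 counts uncertain.

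H13, the signal peptide peptidase, had 62, 63.4 and 63.3 CPM in F0_Dep, against 72.9, 70.7 and 70 CPM in F0_Ctl, and 59.4, 68.5 and 75.9 CPM in F1_Dep, against 63.3, 56.7 and 70 CPM in F1_Ctl. The F0 groups did not overlap and differed by -0.18 ± 0.10 (adjusted p = 0.348). In FPKM it had 25.3, 23.8 and 26.3 in F0_Dep, against 34.2, 33.4 and 34.6 in F0_Ctl, and fell in F0_Dep by 0.42 on the log2 scale (SE 0.08, limma adjusted p = 0.0116). F1_Dep had 28.5, 31.3 and 33.6 FPKM, above F0_Dep by 0.30 ± 0.08 (limma adjusted p = 0.0458). Commd1, a maternally expressed copper homeostasis gene, has the paternally expressed splicing factor retrogene Zrsr1 within it on the opposite strand. It had 15.1, 12.2 and 12.3 CPM in F0_Dep, against 18.5, 14.8 and 17.5 CPM in F0_Ctl, with -0.36 ± 0.19 (adjusted p = 0.313). In F1_Dep it had 15.2, 15.3 and 15.8 CPM, against 13.8, 21.8 and 24.6 CPM in F1_Ctl, with -0.38 ± 0.19 (adjusted p = 0.376). The difference passed without F1_Ctl 1, the F1_Ctl library with the lowest Commd1 level (-0.59 ± 0.13, adjusted p = 0.0406). Zrsr1 had between 76.4 and 95.5 CPM over all 12 libraries, and all its log2 fold changes lay between 0 and 0.19.

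Peg13, a paternally expressed noncoding RNA inside the maternally expressed trafficking gene Trappc9, had 60.9, 61.3 and 60.4 FPKM in F0_Dep, against 45.5, 61.6 and 48.6 FPKM in F0_Ctl, and 64, 58.6 and 65.1 FPKM in F1_Dep. F0_Ctl 2 was as high as the other groups. With all libraries the differences from F0_Ctl were 0.24 ± 0.11 in F0_Dep and 0.27 ± 0.11 in F1_Dep (limma adjusted p = 0.137 and 0.22). Without F0_Ctl 2 they were 0.36 ± 0.07 and 0.40 ± 0.07 (limma adjusted p = 0.0074 and 0.0333), where 33.3% and 5.95% of all genes passed. Leaving out the highest F0_Ctl value raises the difference by itself, so these values are no separate support for a rise. Trappc9 had 68.5 to 75 CPM in F0_Dep, against 63.5 to 66.4 CPM in F0_Ctl, a difference of 0.16 ± 0.08 (adjusted p = 0.307) that was -0.05 ± 0.09 in FPKM.

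Impact, a paternally expressed regulator of translation in neurons, had 179, 181 and 187 CPM in F0_Dep, against 194, 217 and 182 CPM in F0_Ctl, and 232, 198 and 198 CPM in F1_Dep, against 177, 190 and 191 CPM in F1_Ctl. F1_Dep lay above F1_Ctl and F0_Dep without overlap, by 0.17 ± 0.09 and 0.20 ± 0.09 (adjusted p = 0.414 and 0.226). Rasgrf1 had 774, 707 and 710 CPM in F0_Dep, against 794, 687 and 452 CPM in F0_Ctl, and 352, 599 and 633 CPM in F1_Dep, against 622, 575 and 447 CPM in F1_Ctl. Its lowest library was F1_Dep 1, which also held the most striatal markers and the fewest counts of the 11 dentate granule cell markers, 188 CPM against 336 to 967 CPM elsewhere. The log2 fold change of Rasgrf1 in F1_Dep against F0_Dep was -0.47 ± 0.23 and, without F1_Dep 1, -0.24 ± 0.21 (adjusted p = 0.257 and 0.582).

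In the deposited FPKM values, 7 of 31 panel genes passed limma in F0_Dep against F0_Ctl, 22.6% beside 21.2% of all genes tested. Peg3, Ube3a, Copg2 and Ppp1r9a rose, Ube3a by 0.55 ± 0.14 and Ppp1r9a by 0.56 ± 0.15 (adjusted p = 0.0227 and 0.0284). H13, Mcts2 and Commd1 fell, Commd1 by 0.72 on the log2 scale (SE 0.12, adjusted p = 0.00916) and Mcts2 by 0.35 (SE 0.11, adjusted p = 0.0463). None of the 31 passed without F0_Dep 2 or without F0_Dep 3, where 1.72% and 0.298% of all genes passed. H13, for example, then had -0.39 ± 0.10 and -0.46 ± 0.10 (adjusted p = 0.0591 and 0.054). An unadjusted p under 0.05 was then held by 12 and 9 members, against 13 with all libraries. For FPKM, here and below, the share of all genes at that unadjusted threshold is not given. Such counts cannot be read as particular to the panel. Without F0_Ctl 2, 14 passed beside 33.3% of all genes, and without any other library 4 to 6 passed beside 13.8% to 19.8%. In F1_Dep against F0_Dep, H13, Cdkn1c and Commd1 rose, 9.68% of the panel beside 12% of all genes, with 0 calls without F0_Dep 2 or 3 or any 1 library of F1_Dep, 1 without F0_Dep 1, beside 4.52% of all genes, and 8 or 9 without any 1 library of F0_Ctl, beside 17.7% to 19.3%. In F1_Dep against F0_Ctl limma called 0, beside 0.268% of all genes, with 8 at an unadjusted p under 0.05, and it called 5 without F0_Ctl 2, beside 5.95% of all genes, and 4 without F0_Ctl 3, beside 4.56%. With all libraries limma called none of the 4 tested noncoding members; Peg13 had an unadjusted p under 0.05 in F1_Dep against F0_Ctl.

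A further 35 imprinted genes outside the panel were listed, and 29 of them were tested. In F1_Dep against F0_Dep edgeR called 1, with 6 at an unadjusted p under 0.05, beside 22.3% of all genes. DESeq2 called 3 there, Gab1 and Ago2 among them. In the other 5 comparisons edgeR called 0, with 0 to 5 at an unadjusted p under 0.05, beside 5.9% to 19.7% of all genes. DESeq2 called at most 1 in these (Ago2, in F0_Dep against F0_Ctl). Gab1, an adaptor of receptor tyrosine kinases imprinted in mouse placenta, had 67.1, 68.1 and 62.2 CPM in F1_Dep, against 30.7, 34.7 and 35.1 CPM in F0_Dep, with 38.5, 43.5 and 69.3 CPM in F1_Ctl and 27.8, 44.2 and 51.4 CPM in F0_Ctl. It rose by 0.97 ± 0.23 (adjusted p = 0.0464 by edgeR), the 1 call of 29 standing beside 2.87% of all genes. The call was lost without any 1 of the 6 libraries compared (adjusted p of 0.102 to 0.171, log2 fold change 0.91 to 1.01), without F0_Ctl 2 (adjusted p = 0.0552) and without F1_Ctl 2 (adjusted p = 0.0624). F1_Ctl 3, the library with the most choroid plexus marker counts, was at the level of F1_Dep. Of 18 genes that set or keep imprints, 16 were tested and edgeR called 0 in each of the 6 comparisons. At an unadjusted p under 0.05, F0_Dep against F0_Ctl held 2, beside 19.7% of all genes. F1_Dep against F0_Dep held 3, beside 22.3%, the interaction 1, beside 13.4%, and the others 0, beside 5.9% to 14.8%. DESeq2 called 1 in F0_Dep against F0_Ctl and 2 in F1_Dep against F0_Dep. In all, 13 of the 16 lay above 0 in F0_Dep against F0_Ctl, as did 45.4% of all genes. In F1_Dep against F0_Dep 13 lay below 0, as did 7954 of all 16178 genes, and the 2 comparisons share F0_Dep. Tet2, an enzyme that oxidises methylated cytosine, had 47.4, 41 and 40.3 CPM in F1_Dep, against 62.1, 58 and 59 CPM in F0_Dep, with 55, 37.2 and 37.8 CPM in F1_Ctl and 44, 50.6 and 53.4 CPM in F0_Ctl, both of which overlapped F1_Dep; the log2 fold change was -0.48 ± 0.14 (adjusted p = 0.0838 by edgeR).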

How the data were processed

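Hippocampal RNA of 12 mice was sequenced with a stranded mRNA kit, per the labels' protocols. The authors deposited expected counts per gene for all 12 libraries and FPKM values for 9 of them, with no FPKM of F1_Ctl used here. HISAT2, Cufflinks 2.2.1 and mm10 are named in the submitters' processing notes; for the count table neither tool nor use of strand is stated in the labels. Overlapping and nested members therefore have uncertain counts. No deposited value column was left unused. Of the 35812 IDs of the count table, 610 have no symbol.

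Rounded expected counts went into edgeR 4.0.16 (quasi-likelihood F-test, 1 fit over 4 groups, TMM scaling, filterByExpr) in R 4.3.3, with Benjamini-Hochberg adjustment over 16178 genes. CPM was computed from the deposited counts on TMM-scaled totals. Each SE is approximate, being the log2 fold change divided by the root of its F value. For FPKM, limma 3.58.1 was run on log2(FPKM + 1), a scale that understates changes of low genes, over 13820 genes with at least 1 FPKM in at least 3 libraries. The count test was tested on simulated data with known changes. Alternatives were DESeq2 1.42.0, other scalings, no filter, a pseudocount of 0.1, only the groups compared, a replicate block and omission of libraries. With 3 mice a group, p-values and SEs rest on the spread between these mice, and the floors cover counting error only.

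The members, lists and alternatives were chosen with earlier results of these data known. Values in every library are given for members called by edgeR, for the 3 members with the smallest p in each comparison of 2 groups and for at least 1 gene of each domain; some others are given in full because their groups did not overlap, chosen after their values were seen. Coordinates are from GENCODE M21 on GRCm38. Results of some genes on the lists are not reported here.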

Additional observations from a re-analysis of the deposited data

How the results depend on the processing

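Among the panel genes, 0 calls in F0_Dep against F0_Ctl became 1 with DESeq2, 1 without F0_Ctl 3, F1_Ctl 3 and F1_Dep 1 together, 7 in FPKM, 7 with a pseudocount of 0.1, 3 in FPKM with no filter and 0 to 1 without single libraries. In F1_Dep against F1_Ctl, 0 became 2 without the 3 libraries and 0 to 1 without single ones. In F1_Dep against F0_Ctl, 0 became 1 with DESeq2 and 3 without the 3 libraries. In F1_Dep against F0_Dep, 1 became 2 with DESeq2, 0 with the replicate block, 8 with only the groups compared, 5 without the 3 libraries, 3 in FPKM, 3 with a pseudocount of 0.1, 0 in FPKM with no filter and 0 to 3 without single libraries. The interaction went to 1 with DESeq2 and 0 to 1 without single libraries. The members with FPKM only went to 0 to 1 without single libraries in F0_Dep and in F1_Dep against F0_Ctl. Other imprinted genes went to 3 with DESeq2, 2 with no filter, 8 with only the groups compared, 4 without the 3 libraries and 0 to 3 without single ones, and imprint maintenance factors to 2, 5 with only the groups compared, 2 without the 3 libraries and 0 to 2. In FPKM with a pseudocount of 0.1, 21.1% of all genes were called in F0_Dep against F0_Ctl and 11.4% in F1_Dep against F0_Dep. With no filter in FPKM the shares were 6.12% and 2.12%. For DESeq2 and the other count alternatives the share of all genes is not given here. Their counts therefore cannot be read as particular to the panel. The causes were not tested.

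Of 552 values of 27 gene and comparison pairs, 518 kept direction and call, 23 newly passed, 11 no longer passed and 0 reversed. Scaling by library totals turned the medians of F1_Ctl against F0_Ctl (to -0.04 for all genes, -0.02 for members and paternally expressed members and -0.01 for maternally expressed ones), of the interaction (to 0.03 for members and 0.07 for paternally expressed ones) and of all genes in F1_Dep against F1_Ctl (to 0.03); RLE scaling turned that of maternally expressed members in F1_Dep against F0_Ctl to 0.01. No scaling moved the median of all genes by over 0.1. Same-numbered libraries correlated at -0.176 to 0.498 over 18 pairs, 2 of them over 0.1, so the numbers were not taken as pairing, and the replicate block gave Inpp5f an adjusted p of 0.0672. At these depths the 4 members with few counts could not be tested.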
